A study of Mus musculus with 6 samples.

Results

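Described here are 10 genes used as markers of tumor fibroblasts and contractile stromal cells, out of the 23557 genes with a measured value. They were chosen by name, with collagens left out, and fall into 6 matrix fibroblast genes (Dcn, Lum, Pdgfra, Fbln1, Postn and Fap) and 4 contractile genes (Acta2, Tagln, Cnn1 and Myh11). The question was whether the matrix fibroblast genes and the contractile genes differed in the same way between H89-treated and NaCl tumors. H89 is a small kinase inhibitor best known for blocking protein kinase A, and it also inhibits other kinases. The tumors were grown from CT26, a colon carcinoma cell line of the mouse strain that the labels spell Balb/c. The hosts were female mice of that strain, aged 7 weeks. All mice received 500000 cells under the skin. The H89 group (3 tumors) was given H89 at 10 mg/kg in NaCl by intraperitoneal injection, 2 times a week from day 6, the NaCl group (3 tumors) received NaCl, and every tumor was taken on day 14. Each library was made from total RNA of a whole tumor, so that it mixes CT26 cells with the stromal and immune cells of the host, in a site under the skin and not in the colon.

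Fibroblasts of a tumor lay down and remodel the extracellular matrix. Some of them, called myofibroblasts, also assemble smooth muscle actin and its partners into stress fibers, a state driven by transforming growth factor beta and by serum response factor with its coactivators of the MRTF family. Smooth muscle cells and pericytes around vessels share most of these contractile genes, so that a contractile transcript in a whole tumor does not name its cell of origin. The matrix fibroblast transcripts do not name theirs either, since CT26 cells and host cells share each library.

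Promoter sequence was taken from RefSeq (GRCm38.p6) for 2 members, Postn, which had the largest difference between the groups among the members, and Acta2, which had a level close to equal in both. A RefSeq window was at hand for 5 of the 10 members (Pdgfra, Fbln1, Postn, Acta2 and Cnn1). The 250 bases before the transcription start were searched for TATATAA on either strand and for the CArG box, the element bound by serum response factor. The CArG box was taken as CC and GG around 6 middle bases of A or T, or with at least 5 of the 6 being A or T, and it reads the same class of letters on both strands. These motifs were chosen after the sequences had been seen. The Postn window held TATATAA from position -28 (capitals), which 3.04% of 32851 RefSeq windows of the same length hold, and no CArG box.
Postn promoter, chr3:54360857-54361106, plus strand: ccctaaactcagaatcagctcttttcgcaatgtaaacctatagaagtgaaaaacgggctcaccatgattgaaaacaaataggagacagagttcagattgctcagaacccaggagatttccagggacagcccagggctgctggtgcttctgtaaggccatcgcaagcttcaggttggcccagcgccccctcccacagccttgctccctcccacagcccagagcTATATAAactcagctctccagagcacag
The Acta2 window held no CArG box with all 6 middle bases A or T (1.47% of windows have one) and 2 CArG-like matches with 5 or more of the 6 (8.59% of windows have at least 1). They start at positions -84 and -34 from the RefSeq start and are shown in capitals with 10 bases on each side. In GENCODE M21 they lie within the first exon, an untranslated one, of an Acta2 transcript that starts further upstream.
Acta2 match at -84, chr19:34255438-34255467, minus strand: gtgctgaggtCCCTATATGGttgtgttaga
Acta2 match at -34, chr19:34255388-34255417, minus strand: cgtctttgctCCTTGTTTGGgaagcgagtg
No CArG-like match was found in the windows of Pdgfra, Fbln1 and Cnn1, and none of these 3 held TATATAA. A match is a string of letters and says nothing of binding in these tumors.

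Values were estimated counts, and the total per tumor was 27067349 to 31958793, so that 1 count was worth 0.0313 to 0.0369 counts per 1000000 (CPM). Levels are given below as CPM of each tumor's total, and tests are those of edgeR with TMM-scaled library sizes. A gene was tested where its mean over the 6 tumors was at least 0.5 CPM, which 13118 genes passed, and a positive log2 fold change stands for a higher level under H89. Of the genes tested, 1.59% passed a Benjamini-Hochberg adjusted p of 0.05 in edgeR's quasi-likelihood test. These were 0.861% with a higher and 0.724% with a lower level under H89, and 25.0% had an unadjusted p under 0.05. On the CPM scale every H89 value was above every NaCl value for 20.5% of the genes and below for 10.0%. With TMM-scaled sizes this split was 15.2% and 15.5%. The label of the tumor line was checked on 9 epithelial and mesenchymal genes: the intestinal markers Vil1 and Cdx2 stayed under 0.32 CPM, Krt20 lay at 65.1 to 98.5 CPM and the mesenchymal filament gene Vim at 6051 to 7235 CPM. Vim is not particular to fibroblasts and was not used as one of their genes. In RNA of whole tumors, fewer cells of a type and less of a transcript per cell cannot be told apart, which holds for every result below.

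H89-treated tumor 1 stood apart from the other 5 in genes of skeletal muscle and fat, and in Epcam. Acta1, the skeletal muscle actin, was at 12.1 CPM there and at 0.036 to 0.550 CPM in the others, the adipocyte genes Cfd and Adipoq were at 7.32 and 1.47 CPM against at most 0.443 and 0.097 CPM, and the epithelial gene Epcam was at 1.16 CPM against at most 0.097 CPM. Of the other epithelial genes, Krt8 and Krt19 were also highest in that tumor (2.14 and 2.49 CPM), Krt20 was lowest there (65.1 CPM), and Cdh1, Krt18, Vil1 and Cdx2 lay within the range of the other 5 tumors. Members whose values change most with this tumor are given with and without it. The part of these other tissues in the values of that tumor was not tested.

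**Figure D1:**
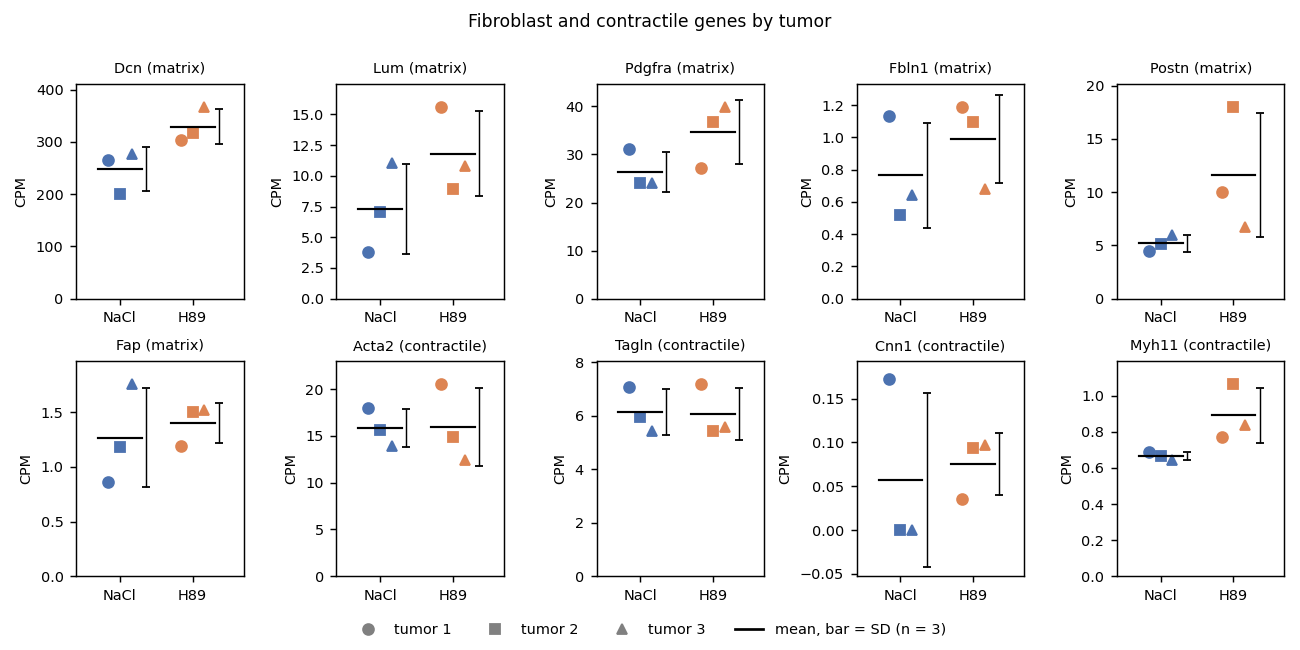
Level of each of the 10 genes in CPM (vertical axes, 1 scale per gene, starting at 0 apart from Cnn1, whose SD bar passes below 0) in the NaCl (blue) and H89-treated (orange) tumors, with 1 symbol per tumor number, the mean as a line and the SD (n = 3) as a bar. All H89 values lie above all NaCl values for Dcn, Postn and Myh11, and the groups overlap for the other 7 genes.

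Among the 6 matrix fibroblast genes, each had a higher mean and a positive log2 fold change under H89, and none passed the test with adjustment over all 13118 genes. Dcn (chromosome 10 from 97479609 to 97518143, positions on GRCm38) encodes decorin, a small leucine-rich proteoglycan that coats collagen fibrils, and was by far the most abundant member. It was at 266, 200 and 277 CPM in NaCl tumors 1 to 3 and at 303, 317 and 367 CPM in H89-treated tumors 1 to 3. The lowest H89 value lay above the highest NaCl value, with NaCl tumor 2 the lowest of all. The mean was 248 ± 41.8 CPM (SD, n = 3) under NaCl and 329 ± 33.8 CPM (SD, n = 3) under H89. Dcn had a log2 fold change of 0.34 (SE 0.14, 95% interval 0.018 to 0.66) with p = 0.0411 in edgeR's quasi-likelihood test, an adjusted p of 0.183 (Benjamini-Hochberg over all genes tested) and an exact two-sided permutation p of 0.1. This is the smallest value that the 10 splits of the tumors into 3 and 3 allow. Without H89-treated tumor 1 the Dcn log2 fold change was 0.36, and leaving out NaCl tumor 2 brought it to 0.19.

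Lum, the neighbour of Dcn on chromosome 10 (97565128 to 97572703), encodes lumican, another leucine-rich proteoglycan of collagen fibrils. Its level was 3.78, 7.06 and 11.0 CPM in the NaCl tumors and 15.6, 8.95 and 10.8 CPM in the H89-treated tumors. The groups overlapped, since NaCl tumor 3 was above both H89-treated tumors 2 and 3. The means were 7.30 ± 3.64 CPM and 11.8 ± 3.44 CPM (SD, n = 3 each), and the log2 fold change of 0.64 (SE 0.37) had an adjusted p of 0.324 (edgeR, Benjamini-Hochberg). It was 0.34 without H89-treated tumor 1, which had the highest Lum value, and 1.06 without NaCl tumor 3.

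Postn (chromosome 3 from 54361109 to 54391037) encodes periostin, a matricellular protein made by activated fibroblasts, and showed the largest difference of the 10 genes. Its level was 4.44, 5.17 and 5.99 CPM in NaCl tumors 1 to 3 and 9.98, 18.0 and 6.76 CPM in H89-treated tumors 1 to 3. All H89 values lay above all NaCl values, H89-treated tumor 2 by the widest margin and H89-treated tumor 3 by little. The mean was 5.20 ± 0.776 CPM (SD, n = 3) under NaCl and 11.6 ± 5.80 CPM (SD, n = 3) under H89, a ratio of 2.23. For Postn the log2 fold change was 1.09 (SE 0.34, 95% interval 0.30 to 1.88), with p = 0.0128, an adjusted p of 0.111 (edgeR, Benjamini-Hochberg) and an exact two-sided permutation p of 0.1. It was 0.63 without H89-treated tumor 2 and was 1.17 without H89-treated tumor 1. Postn was the only member past the threshold under any alternative tried, with a Benjamini-Hochberg adjusted p of 0.0161 in DESeq2's Wald test, where 10.9% of 12854 genes passed. Over all its alternatives the adjusted p was 0.0161 to 0.244.

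Pdgfra (chromosome 5 from 75152292 to 75198215), the receptor for platelet-derived growth factor that marks fibroblasts, was at 31.1, 24.0 and 24.0 CPM under NaCl and at 27.2, 36.8 and 39.9 CPM under H89. H89-treated tumors 2 and 3 were above all NaCl tumors, and H89-treated tumor 1 was below NaCl tumor 1. The means were 26.4 ± 4.11 CPM and 34.6 ± 6.64 CPM (SD, n = 3 each), with a log2 fold change of 0.32 (SE 0.16) and an adjusted p of 0.258 (edgeR, Benjamini-Hochberg). Leaving out H89-treated tumor 1 brought the log2 fold change to 0.44. Exons of Pdgfra overlap those of Gm42802 and Gm42803 on the other strand, and whether the libraries kept strand is not given in the sources used here.

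Fbln1 and Fap were low. Fbln1 (chromosome 15 from 85205949 to 85286535) encodes fibulin 1, a matrix glycoprotein, and stood at 14 to 35 counts per tumor: 1.14, 0.517 and 0.646 CPM under NaCl and 1.19, 1.10 and 0.679 CPM under H89. Fap (chromosome 2 from 62500943 to 62574075), a surface protease of activated fibroblasts, was at 0.860, 1.18 and 1.76 CPM under NaCl and at 1.19, 1.50 and 1.52 CPM under H89. NaCl tumor 3 had the highest Fap value of all 6 tumors, and the groups overlapped for both genes. Their log2 fold changes were 0.29 (SE 0.40) for Fbln1 and 0.080 (SE 0.30) for Fap, with adjusted p of 0.677 and 0.893 (edgeR, Benjamini-Hochberg). The Fbln1 value was 0.11 without H89-treated tumor 1, 0.066 without NaCl tumor 2 and 0.71 without NaCl tumor 1. Counting error alone gave an SD of 0.166 CPM for Fbln1 under NaCl, against 0.326 CPM between tumors. The direction of both genes turned under quantile normalization, to -0.013 for Fbln1 and -0.15 for Fap.

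None of the contractile genes passed the test, and their differences had no common direction. Acta2 (chromosome 19 from 34241090 to 34255590) encodes smooth muscle alpha-actin, the gene by which myofibroblasts are most often recognised. It was at 18.0, 15.6 and 13.9 CPM in NaCl tumors 1 to 3 and at 20.5, 14.9 and 12.4 CPM in H89-treated tumors 1 to 3. H89-treated tumors held both the highest and the lowest value. The mean was 15.8 ± 2.06 CPM under NaCl and 15.9 ± 4.15 CPM under H89 (SD, n = 3 each). Acta2 had a log2 fold change of -0.053 (SE 0.22), with an adjusted p of 0.904 (edgeR, Benjamini-Hochberg). The 95% interval ran from -0.56 to 0.45, so that changes of that size in either direction remain compatible with these 3 tumors per group. Without H89-treated tumor 1, the highest, the log2 fold change was -0.31, and without H89-treated tumor 3 it was 0.12.

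Tagln (chromosome 9 from 45929619 to 45936058) encodes the actin-binding protein transgelin and differed as little between the groups as Acta2. Its level was 7.09, 5.95 and 5.42 CPM under NaCl and 7.18, 5.41 and 5.59 CPM under H89. Tumor 1 was the highest within each group. The means were 6.15 ± 0.854 CPM and 6.06 ± 0.973 CPM (SD, n = 3 each), with a log2 fold change of -0.089 (SE 0.20, 95% interval -0.55 to 0.37, adjusted p of 0.810, edgeR, Benjamini-Hochberg). It was -0.26 without H89-treated tumor 1 and 0.043 without NaCl tumor 1. Exons of Tagln overlap those of Pcsk7 on the other strand.

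Myh11 (chromosome 16 from 14194535 to 14291372), the smooth muscle myosin heavy chain, was at 0.688, 0.665 and 0.646 CPM under NaCl and at 0.771, 1.06 and 0.840 CPM under H89. These levels rest on few counts, 18 to 20 with NaCl and 22 to 34 with H89. The lowest H89 value was above the highest NaCl value, and H89-treated tumor 2 was the highest. The means were 0.666 ± 0.0213 CPM and 0.892 ± 0.153 CPM (SD, n = 3 each), but counting error alone gives an SD of 0.154 CPM at the NaCl level, more than the spread seen between the NaCl tumors. The log2 fold change of 0.35 (SE 0.27) had an adjusted p of 0.445 (edgeR, Benjamini-Hochberg), and it was 0.0096 under quantile normalization and 0.21 without H89-treated tumor 2. Cnn1 (chromosome 9 from 22099216 to 22109630), which encodes the actin-binding protein calponin, had 5, 0 and 0 estimated counts in the NaCl tumors and 1, 3 and 3 in the H89-treated tumors. It was below the filter and was not tested. A count of 0 allows up to 0.111 CPM in NaCl tumor 2 and 0.108 CPM in NaCl tumor 3 (3 counts, counting error only), which is above each of the 3 H89 values.

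**Figure D2:**
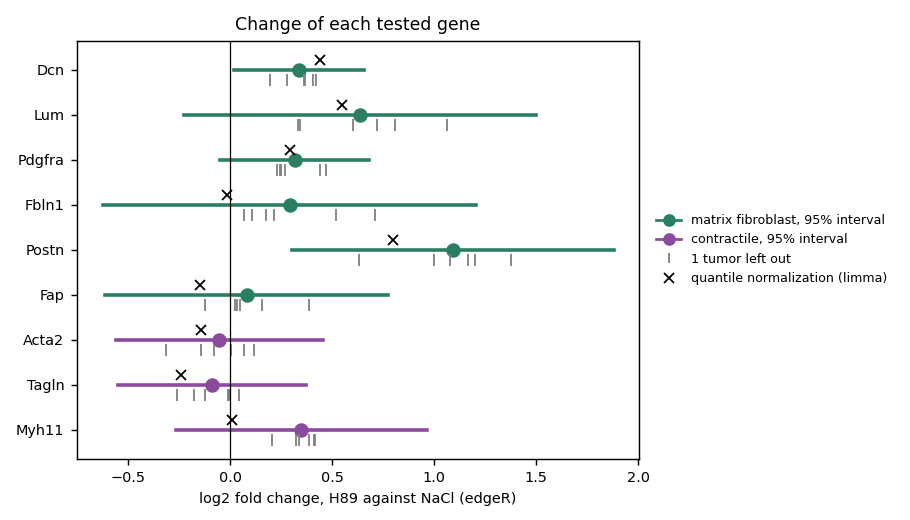
Log2 fold change of H89 against NaCl (horizontal axis) for the 9 genes tested, as edgeR's estimate with its 95% interval (matrix fibroblast genes green, contractile genes purple), with each estimate after 1 tumor was left out (grey ticks) and under quantile normalization (crosses). The intervals of Dcn and Postn lie above 0, those of the other 7 genes include 0, and the Postn estimate ranges from 0.63 to 1.38 as tumors are left out.

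Of the 9 members tested, 0 passed the Benjamini-Hochberg threshold in edgeR's test (1.59% of all genes passed). In DESeq2's test 1 passed, Postn, beside 10.9% of all genes. An unadjusted p under 0.05 in edgeR's test was found for 2, Dcn and Postn, both higher, beside 25.0% of all genes (13.1% higher). The groups did not overlap for 3 of the 9, all with the H89 values above, beside 20.5% of all genes tested, or 15.2% with TMM-scaled sizes. For the 6 matrix fibroblast genes the median log2 fold change was 0.33 and 6 of 6 were above 0. For the 3 contractile genes tested it was -0.053 and 1 of 3 was above 0. Over all genes tested the median was 0.004 and 50.6% were above 0. Postn is at one end of the range of the members and Tagln at the other.

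The matrix fibroblast and contractile genes were then set against each other within each tumor. The mean log2(CPM + 0.5) of the 6 matrix fibroblast genes was 3.10, 3.08 and 3.39 in NaCl tumors 1 to 3 and 3.66, 3.78 and 3.58 in H89-treated tumors 1 to 3. The groups did not overlap, with H89 above, as for 20.5% of single genes tested on the CPM scale, and the means differed by 0.48. The mean of the 4 contractile genes was 1.70, 1.48 and 1.40 under NaCl and 1.69, 1.60 and 1.49 under H89, which overlapped and differed by 0.069. On this scale, without TMM, the median over all genes tested was also 0.069, an offset that both differences include. The difference between the 2 means, matrix fibroblast minus contractile, was 1.40, 1.60 and 1.99 under NaCl and 1.96, 2.18 and 2.08 under H89. NaCl tumor 3 was above H89-treated tumor 1 here, so the groups overlapped by 1 pair of tumors. The mean difference was 1.66 ± 0.30 under NaCl and 2.08 ± 0.11 under H89 (SD, n = 3 each), a shift of 0.42 on the log2 scale, and it was given no test because the genes were picked with results of these data known. The shift was 0.28 to 0.58 with 1 tumor left out (lowest without NaCl tumor 1, highest without NaCl tumor 3) and 0.31 without Postn.

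**Figure D3:**
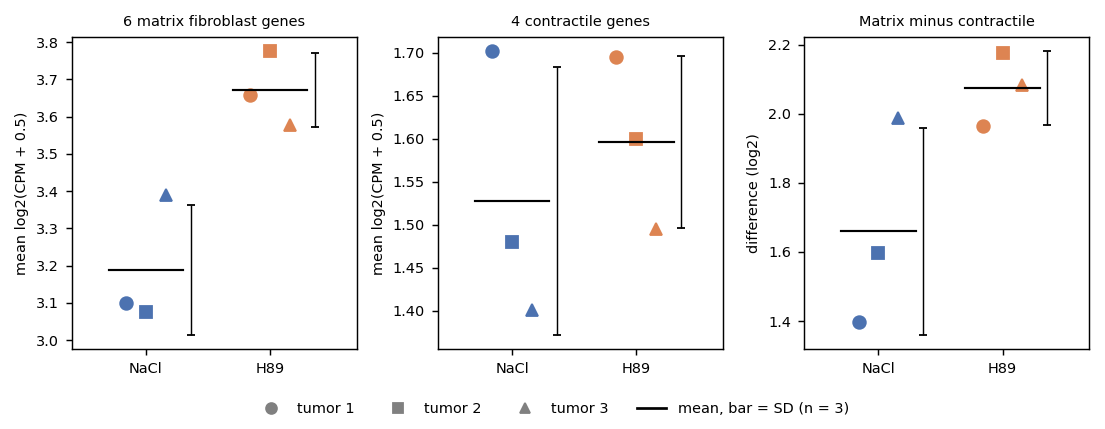
Mean log2(CPM + 0.5) of the 6 matrix fibroblast genes (left), of the 4 contractile genes (middle) and the difference between them (right) in each tumor, with the group mean as a line and the SD (n = 3) as a bar. The vertical axes do not start at 0. The groups separate for the matrix fibroblast mean (at most 3.39 under NaCl, at least 3.58 in H89) and overlap in the other 2 panels. On the CPM scale 20.5% of single genes tested separate with H89 above.

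Ratios of CPM within a tumor, not divided by gene length, were taken for Postn and Dcn against Acta2, and for no other pair. Postn was at 0.247, 0.331 and 0.432 of the Acta2 CPM in NaCl tumors 1 to 3 and at 0.486, 1.21 and 0.543 in H89-treated tumors 1 to 3. All H89 ratios were above all NaCl ratios. The CPM of Postn alone already separated the groups, so the ratio is not separate evidence. Dcn was at 14.8, 12.8 and 20.0 times the Acta2 CPM under NaCl and at 14.8, 21.3 and 29.5 times under H89, which overlapped at H89-treated tumor 1.

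To compare levels between genes, CPM was divided by the length of all exons of the gene in kb (GENCODE M21). In NaCl tumors Dcn was highest, at 42.4 ± 7.16 CPM per kb, and Acta2 was next, at 7.21 ± 0.940 CPM per kb (SD, n = 3 each). Tagln, Lum and Pdgfra followed at 3.09 ± 0.430, 2.98 ± 1.49 and 2.63 ± 0.410 CPM per kb, and the SD ranges of these 3 overlapped. Postn was at 0.598 ± 0.0892 CPM per kb, and Fap, Fbln1, Myh11 and Cnn1 were at 0.224, 0.175, 0.0877 and 0.021 CPM per kb, with Fap and Fbln1 within their spread of each other. In H89-treated tumors the order of the means was Dcn (56.4), Acta2 (7.26), Lum (4.82), Pdgfra (3.46), Tagln (3.05), Postn (1.33), Fap (0.248), Fbln1 (0.226), Myh11 (0.117) and Cnn1 (0.0275 CPM per kb). Lum and Pdgfra passed Tagln in the order of the means, and every other place was as under NaCl. Under H89 the SDs (n = 3) were 1.41 for Lum, 0.663 for Pdgfra and 0.489 CPM per kb for Tagln. Pdgfra and Tagln lay within the spread of each other, as Fap and Fbln1 did. Pdgfra lay within the spread of Lum, but Lum lay above that of Pdgfra.

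The tumors were also compared on a wider list of 47 fibroblast and matrix genes without collagens or members, of which 41 were tested. In this list 2 genes rose and 0 fell at a Benjamini-Hochberg adjusted p under 0.05 in edgeR's test (0.861% and 0.724% of all genes tested). At an unadjusted p under 0.05, 16 were higher and 2 lower, beside 13.1% and 11.9% of all genes. The log2 fold change was above 0 for 31 of 41, with a median of 0.18 against 0.004 over all genes, and the groups did not overlap with H89 above for 14 and with H89 below for 1, beside 20.5% and 10.0% of all genes (12 and 2 with TMM-scaled sizes, beside 15.2% and 15.5%). Without H89-treated tumor 1 the median was 0.22 and 29 of 41 were above 0, but 0 genes of the list passed the adjusted threshold there, as with any other tumor left out.

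The genes that rose were Omd and Fbn1. Omd encodes osteomodulin, a keratan sulfate proteoglycan of the same leucine-rich family as Dcn and Lum. It was at 8.36, 10.7 and 10.7 CPM under NaCl and at 38.7, 24.4 and 23.8 CPM under H89, a log2 fold change of 1.49 (SE 0.23, adjusted p = 0.0407, edgeR, Benjamini-Hochberg). Fbn1 encodes fibrillin 1, the backbone of elastic microfibrils, and was at 13.0, 12.0 and 13.6 CPM under NaCl and at 21.2, 26.5 and 21.0 CPM under H89. Its log2 fold change was 0.76 (SE 0.13, adjusted p = 0.0443, edgeR, Benjamini-Hochberg). Every H89 value of both genes lay above every NaCl value, and their adjusted p was 0.0667 to 0.142 with 1 tumor left out.

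Loxl3, a lysyl oxidase that crosslinks collagen and elastin, and Twist2, a transcription factor of mesenchymal cells, had the next smallest p among the genes of the list whose groups did not overlap. Loxl3 was at 81.2, 89.3 and 76.6 CPM under NaCl and at 124, 124 and 114 CPM under H89 (log2 fold change 0.48, SE 0.094, adjusted p of 0.0513, edgeR, Benjamini-Hochberg). Twist2 was the single gene of the list with all H89 values below, at 129, 123 and 106 CPM under NaCl and at 90.6, 76.1 and 94.0 CPM under H89 (log2 fold change -0.53, SE 0.12, adjusted p of 0.0664, edgeR, Benjamini-Hochberg). With TMM-scaled sizes 1 further gene of the list had all H89 values below. Exons of Fbn1, Loxl3 and Twist2 overlap those of Gm9913, Htra2 and Gm29100 on the other strand.

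Several of the other proteoglycans related to Dcn and Lum lie side by side on chromosome 13, and these were looked at after their values had been seen, so that no test is attached to them as a group. Ecm2, Aspn, Omd and Ogn follow each other between positions 49504810 and 49624501 (GRCm38), and each had all H89 values above all NaCl values, as 20.5% of all genes tested did (15.2% with TMM-scaled sizes). Of these 4 Omd alone passed the adjusted threshold, and the adjusted p was 0.102 for Aspn, 0.0827 for Ogn and 0.0841 for Ecm2 (edgeR, Benjamini-Hochberg). The groups overlapped for the related proteoglycans Bgn and Prelp, with log2 fold changes of 0.55 and 0.25. Aspn, which encodes asporin, was at 13.3, 34.2 and 46.1 CPM under NaCl and at 107, 80.1 and 62.7 CPM under H89, a log2 fold change of 1.36. Ogn, which encodes osteoglycin, was at 54.6, 86.1 and 91.5 CPM under NaCl and at 237, 136 and 135 CPM under H89, a log2 fold change of 1.08, and Ecm2 had a log2 fold change of 0.96. H89-treated tumor 1 was the highest of the 6 for all 4 genes. Leaving it out gave log2 fold changes of 0.90 for Ecm2, 1.10 for Aspn, 1.18 for Omd and 0.71 for Ogn. Exons of Aspn overlap those of Cenpp on the other strand. On chromosome 10, beside Dcn and Lum, Kera had 1 to 14 counts per tumor and Epyc 0 or 1.

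Genes of the elastic fiber within the same list were also singled out after their values had been seen. Besides Fbn1, each H89 value exceeded each NaCl value for Eln, which encodes elastin, and for Fbln5, Mfap4 and Efemp1, whose products bind elastic fibers, beside 20.5% of all genes tested (15.2% with TMM-scaled sizes). Eln was low, at 0.516, 0.702 and 1.44 CPM under NaCl and at 3.47, 1.63 and 1.52 CPM under H89. Fbln5 was at 41.0, 55.5 and 43.9 CPM under NaCl and at 71.9, 59.1 and 57.1 CPM under H89. Others of the same structure did not separate: Fbln2 had a log2 fold change of 0.003, Efemp2 of -0.18 and Mfap5 of 0.46, with groups that overlapped. The smallest adjusted p among these 7 was 0.0796, for Efemp1 (edgeR, Benjamini-Hochberg).

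A wider list of 31 smooth muscle and actin cytoskeleton genes, 25 of them tested, gave 0 genes past the Benjamini-Hochberg threshold in edgeR's test and 4 in DESeq2's (10.9% of all genes passed there). At an unadjusted p under 0.05, 1 was higher and 5 were lower, beside 13.1% and 11.9% of all genes. The log2 fold change was below 0 for 17 of 25, with a median of -0.057, and the groups did not overlap with H89 above for 2 and with H89 below for 5, beside 20.5% and 10.0% of all genes (2 and 6 with TMM-scaled sizes, beside 15.2% and 15.5%). Csrp1, a LIM protein of actin filaments, was at 121, 128 and 132 CPM under NaCl and at 102, 91.2 and 107 CPM under H89 (log2 fold change -0.41, SE 0.087, adjusted p of 0.0608, edgeR, Benjamini-Hochberg). Pdlim7, a scaffold of actin fibers, had a log2 fold change of -0.42 (adjusted p of 0.0813), the small heat shock protein gene Hspb6 one of -0.55 (adjusted p of 0.108) and Tagln2, a paralog of Tagln also made outside muscle, one of -0.38 (adjusted p of 0.112), all in edgeR's test. The H89 values of these 4 genes lay all below their NaCl values. Tagln2 was at 417 to 557 CPM under NaCl and at 379 to 409 CPM under H89, far above Tagln at 5.42 to 7.09 and 5.41 to 7.18 CPM. Estimated counts of such relatives can share reads. The Tagln estimates were whole numbers in every tumor, and sharing of reads was not tested. Exons of Hspb6 overlap those of Lin37 and Proser3 on the other strand.

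**Figure D4:**
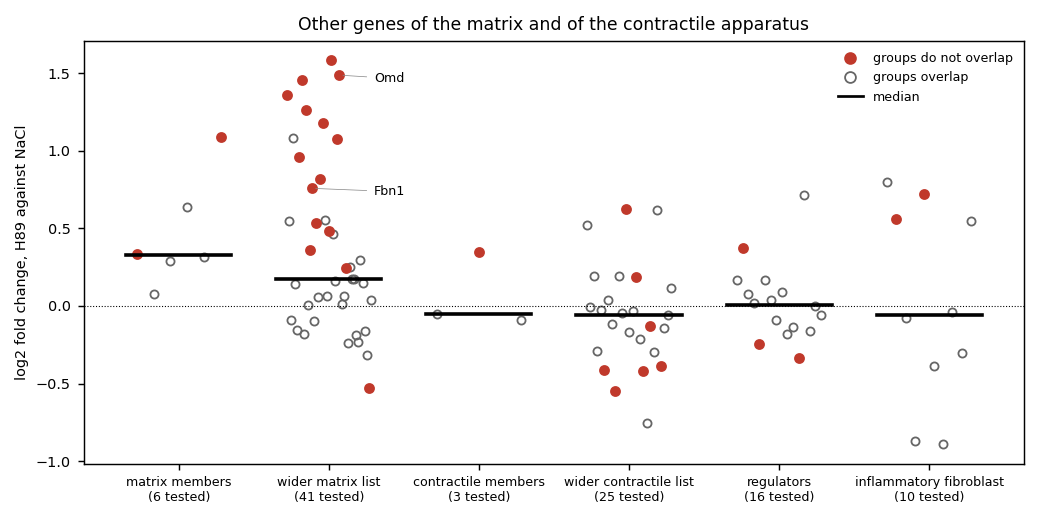
Log2 fold change of H89 against NaCl (vertical axis) for each tested gene of the members and of 4 wider gene lists (horizontal axis), filled where the groups did not overlap, with the median of each list as a line. The labelled genes, Omd and Fbn1, are the ones past the Benjamini-Hochberg threshold, and the medians are 0.33 for the matrix members, 0.18 for the wider matrix list, -0.053 for the contractile members and -0.057 for the wider contractile list.

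The regulators of the contractile state and the inflammatory genes of fibroblasts were covered by 2 further lists. Of either, 0 genes passed the Benjamini-Hochberg threshold in edgeR's test. DESeq2's test called 1 of the regulators and 3 of the inflammatory genes, beside 10.9% of all genes. Of 17 regulators 16 were tested, with 8 above 0 and a median of 0.0092. At an unadjusted p under 0.05, 1 regulator was higher and 2 were lower, beside 13.1% and 11.9% of all genes. The groups did not overlap with H89 above for 1 and below for 2, beside 20.5% and 10.0% of all genes. With TMM-scaled sizes these were 0 and 3, beside 15.2% and 15.5%. Tgfb1, the main inducer of the myofibroblast state, was at 154, 142 and 142 CPM under NaCl and at 109, 127 and 128 CPM under H89. Its H89 values lay all below, with a log2 fold change of -0.34 (SE 0.088, adjusted p of 0.0827, edgeR, Benjamini-Hochberg). Rhoa, the GTPase upstream of stress fibers, had a log2 fold change of -0.24 (SE 0.082, adjusted p of 0.129, edgeR, Benjamini-Hochberg), which was -0.040 under quantile normalization. Ccn2, a matricellular target of transforming growth factor beta, was at 14.3, 13.7 and 18.7 CPM under NaCl and at 21.5, 18.8 and 23.4 CPM under H89 (log2 fold change 0.37, SE 0.15, adjusted p of 0.178, edgeR, Benjamini-Hochberg). Serum response factor itself, Srf, had a log2 fold change of -0.14, its coactivators Mrtfa and Mrtfb had 0.078 and 0.021, and Myocd, the coactivator of smooth muscle, was below the filter. Exons of Rhoa overlap those of Tcta, and exons of Ccn2 those of Gm15270, on the other strand.

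Of the 12 inflammatory fibroblast genes 10 were tested, with 4 above 0 and a median of -0.058. At an unadjusted p under 0.05, 2 were higher and 1 was lower, beside 13.1% and 11.9% of all genes. Cxcl12, a chemokine of stromal cells, was at 7.12, 7.83 and 7.35 CPM under NaCl and at 14.6, 14.0 and 9.78 CPM under H89 (log2 fold change 0.72, SE 0.19, adjusted p of 0.0839, edgeR, Benjamini-Hochberg). Ccl2, a chemokine that attracts monocytes and is also made by macrophages and tumor cells, was at 136, 128 and 109 CPM under NaCl and at 199, 151 and 228 CPM under H89 (log2 fold change 0.56, SE 0.16, adjusted p of 0.0959, edgeR, Benjamini-Hochberg). In this list H89 values lay all above for these 2 and all below for 0, beside 20.5% and 10.0% of all genes. With TMM-scaled sizes the counts were the same, beside 15.2% and 15.5%.

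Markers of other cells that could carry these transcripts were measured beside the members, and 0 genes of these 7 lists passed the Benjamini-Hochberg threshold in edgeR's test. At an unadjusted p under 0.05 there were 19 of the 57 genes tested in these lists, beside 25.0% of all genes, and DESeq2 called 9 with adjustment, beside 10.9%. For 11 pericyte genes the summed level was 76.9 to 142 CPM under NaCl and 67.1 to 98.3 CPM under H89, and 8 of the 9 tested had a log2 fold change below 0 (median -0.43). For 12 endothelial genes it was 185 to 292 CPM under NaCl and 178 to 248 CPM under H89 (median log2 fold change -0.31). The pericyte marker Rgs5 was at 13.9 to 30.0 CPM under NaCl and 10.7 to 21.4 CPM under H89. Kcnj8 was the only pericyte gene whose groups did not overlap, with H89 below, as for 10.0% of all genes. It was at 4.06 to 10.7 CPM under NaCl and 0.525 to 3.13 CPM under H89 (log2 fold change -1.95, adjusted p of 0.101, edgeR, Benjamini-Hochberg). DESeq2's test called 1 gene of the pericyte list. The paper that reported these tumors, which used DESeq2, names Kir6.1, the product of Kcnj8, among its downregulated genes. The medians of both lists were thus below 0 and that of the matrix fibroblast genes above 0, and the part of these cells in the contractile values was not tested.

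For 10 adipocyte genes the sum was 23.6 to 41.6 CPM under NaCl and 28.5 to 59.3 CPM under H89, with H89-treated tumor 1 the highest, and Lep was at 0 in the other 5 tumors. For 20 skeletal muscle genes it was 108 to 123 CPM and 87.4 to 118 CPM, most of it Eno3 (80.3 to 116 CPM). Eno3 had all H89 values below, as 10.0% of all genes did, so that this sum mainly follows Eno3. Of the 9 muscle genes tested, 7 had a log2 fold change above 0 (median 0.93). The median was 0.28 over the 7 tested without H89-treated tumor 1. Of 14 keratinocyte genes measured here, 6, including Krt1 and Ivl, were at 0 in all tumors, and the sum was 3.00 to 4.54 CPM and 4.64 to 5.37 CPM. For 10 macrophage genes it was 1325 to 2153 CPM and 1773 to 2325 CPM. For 9 T cell genes it was 16.5 to 38.0 CPM and 35.3 to 92.4 CPM, and 9 of 9 had a log2 fold change above 0 (median 1.28). The part of these cells, and that of the CT26 cells themselves, in the members' values was not tested. Without H89-treated tumor 1 the median log2 fold change was 0.35 for the 6 matrix fibroblast genes and -0.26 for the 3 contractile genes.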

How the data were processed

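Per the labels, kallisto, DESeq2 and GRCm38 were used by the submitters, with versions not given in the sources used here. The authors deposited 1 table of 6 tumors by 23557 genes, called TPM but holding estimated counts that are scaled neither for depth nor for length, since no tumor sums to 1000000 and 58.6% to 61.4% of values above 0 lie within 0.01 of a whole number. Tumors were mapped to groups by title and description. Counts were rounded and tested with edgeR 4.0.16 (TMM, glmQLFit, glmQLFTest, treatment as the only term) in R 4.3.3, with Benjamini-Hochberg adjustment over the 13118 genes whose mean reached 0.5 CPM. The SE is the log2 fold change divided by the root of the F statistic. Alternatives used limma 3.58.1 and DESeq2 1.42.0. Printed CPM uses each tumor's total, and TMM factors were 0.956 to 1.06.

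The members and lists were chosen with earlier results of these data known. Named genes are the members, each gene past the adjusted threshold in the matrix, contractile, regulator and inflammatory lists, and in each the 4 with the smallest p whose groups do not overlap. Srf, Mrtfa, Mrtfb, Myocd, Rgs5, Kcnj8, Eno3 and the marker genes of single tumors or tissues were named after their values had been seen, as were those said to be so in the text. Of 205 list genes 2 were not analysed here. Each tumor counts as 1 replicate, and p-values measure the spread between these tumors. No pair of tumors in a group had identical values throughout. Counting intervals cover counting error only. The fits were tested on simulated data. Positions are those of GENCODE M21.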

Additional observations from a re-analysis of the deposited data

How the results depend on the processing

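Each of the 9 tested members was refitted under up to 15 alternatives, 132 values in all: 124 kept their direction and their side of the threshold, 7 turned direction and 1 passed the threshold. The turns were those of Fbln1 (-0.013) and Fap (-0.15) under quantile normalization with limma, and of Fap, Acta2 and Tagln with 1 tumor left out, where the log2 fold change was -0.13 to 0.39, -0.31 to 0.12 and -0.26 to 0.043. The cause was not tested. All 7 are values inside the interval of their own gene. At a filter of 5 CPM, Fbln1, Fap and Myh11 were not tested. DESeq2's Wald test called 1 matrix fibroblast member (Postn), 9 genes of the wider matrix list, 4 of the wider contractile list and 1396 of all genes, and quantile normalization called 1 gene of the wider matrix list and 80 of all genes, against 0, 2, 0 and 208 in edgeR. With 1 tumor left out the calls were 0 in the wider matrix list and 0 to 12 over all genes (12 without H89-treated tumor 3, 2 without NaCl tumor 1), where fewer tumors were fitted. No contractile member was called under any alternative run.

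With the replicate block, the calls were 0 in the wider matrix list and 0 over all genes. Same-numbered tumors deviated from their group means with correlations of 0.16, 0.063 and -0.026, beside -0.37 to 0.35 for other pairs. With 3 tumors per group these values depend on each other and cannot decide whether same-numbered tumors belong together. The sample titles give only a number, and the fit without a block is the one reported. Not every tumor was closest to its own number. The shift of matrix fibroblast against contractile genes was 0.31 to 0.41 under other pseudocounts, scalings or without Cnn1 or Postn, the last 2 chosen after the data had been seen, as was counting overlap with TMM-scaled sizes. Depth limits Cnn1, Myh11, Fbln1 and Fap most, and 3 tumors per group limit every interval.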

Other observations

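Over the 6 tumors, the genes outside the lists whose log2(CPM + 0.5) was most like the mean of the 6 matrix fibroblast genes were Rmdn1, Nat2, Ccnj, Angel1 and Btrc, with Pearson r from 0.986 to 0.995. For the mean of the 4 contractile genes they were Cyp2s1, BC005624, Akap17b, Ahdc1 and Gpr137, with r from 0.967 to 0.989. Of the 12960 genes searched, 73 had an r above 0.95 with the matrix fibroblast mean and 18 with the contractile mean. The tumors share the scaling by their totals and the 2 treatment groups, and no p is given for these values.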
